A study of Homo sapiens with 2 samples.

Results

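Heat shock proteins and J-domain chaperones were compared between 1 array of U251 cells transfected with a control and 1 array of U251 cells transfected with miR-31. U251 is an established human glioma cell line, and both cultures grew in DMEM with fetal bovine serum. The labels name no construct, dose, clone or time after transfection, the level of mature miR-31 was not analysed here, and any other difference between the 2 cultures cannot be told apart from miR-31. With earlier results of these data known, members were taken by gene symbol alone, with no filter on their values. They were the genes of the HSPA, HSPB and HSP90 series, the DNAJA, DNAJB and DNAJC series, and HSPD1, HSPE1, HSPH1, CRYAB and HSF1. The rule found 68 genes among 19775 with a probe set of a single gene symbol, read by 166 probe sets. A probe set is a group of short probes near the 3' end of a transcript. The highest-mean probe set of a gene stands for it, 15 members had 1 probe set, and the most for a member was 7. The symbol rule also took in HSPA2-AS1, an antisense RNA that codes for no chaperone, so 67 of the members are protein-coding.

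Heat shock proteins keep other proteins folded. HSP70 proteins bind unfolded stretches in a cycle driven by ATP, J-domain proteins bring them their substrates and start ATP hydrolysis, and HSP110 proteins and other exchange factors reset the cycle. HSP90 finishes the folding of kinases and receptors, chaperonins enclose single proteins, and small heat shock proteins hold unfolded proteins without ATP. HSF1 is the transcription factor that induces many of these genes under heat or other protein damage, and glioma cells are known for high levels of several of them. The transfected agent, miR-31, pairs with messages mainly through its seed. Its mature 5p strand in RefSeq (chr9:21512158-21512178, minus strand, GRCh38.p14) is shown with the seed, bases 2 to 8, in capitals:
hsa-miR-31-5p: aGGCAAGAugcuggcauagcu

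Each value is a deposited intensity, which both arrays share a common scale for: trimmed of 2 percent of probe sets at either end, each array had a mean of 499.9. A ratio is the log2(intensity + 16) with miR-31 less that of the control, and the added 16 understates the change of dim genes. With 1 array a group there is no replicate spread, no p-value was computed, and the number of arrays limits the precision. As a gauge of noise, the SD of a ratio between probe sets of the same gene was 0.334, from 3142 genes with exactly 2 probe sets at or above the median level (an intensity of 62.7). This gauge leaves out any spread between cultures. The glioma markers GFAP (intensities of 2007 and 3624 in the control and miR-31 arrays), SOX2 (13333 and 17486) and VIM (29991 and 34112) were bright and higher with miR-31. The other 6 glioma markers at or above the level were lower on their highest-mean sets: GJA1 (-0.92), NES (-0.91), SOX9 (-0.56), FABP7 (-0.52), CD44 (-0.24) and SLC1A3 (-0.22). NES had 0.03 on its other set. Sets at or above the level ran from -0.69 to 0.28 for CD44 and from -0.48 to 0.60 for SOX2. The list of glioma markers had a median of -0.22, and S100B and AQP4 were below the level. Among markers of other cell types at or above the level KRT18 had 5950 and 2938 (-1.01), COL1A1 a ratio of -0.62 and SNAP25 -0.60. Dimmer sets at or above the level had -0.74 and 0.11 for COL1A1 and 0.18 for SNAP25. KRT8 was higher, with 159 and 195 (0.27), and PECAM1 was at 0.03. None of 3 measured immune markers reached the level, with PTPRC at 30.1 in the control. The part of these markers in the results was not tested.

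Most chaperone genes differed little. Of the 68 members 64 lay within 2-fold, 3 were lower with miR-31 by 2-fold or more (4.41%, beside 5.20% of all genes) and 1 was higher by 2-fold or more (1.47%, beside 6.24% of all genes). Both shares were below those of all genes. The lower members were CRYAB, HSPB6 and HSPA2-AS1, and the higher one was DNAJC15. At 1.5-fold 7 members were lower (10.3%, beside 12.7% of all genes) and 4 higher (5.88%, beside 15.1%). By sign, 40 members were lower and 28 higher, and the median log2 ratio was -0.12, beside 0.01 over all genes. Of the members 56 reached the median level and 12 were dimmer. Among those that reached it CRYAB was the only one past 2-fold downwards and DNAJC15 upwards, beside 1.60% and 3.81% of all genes at that level.

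**Figure D1:**
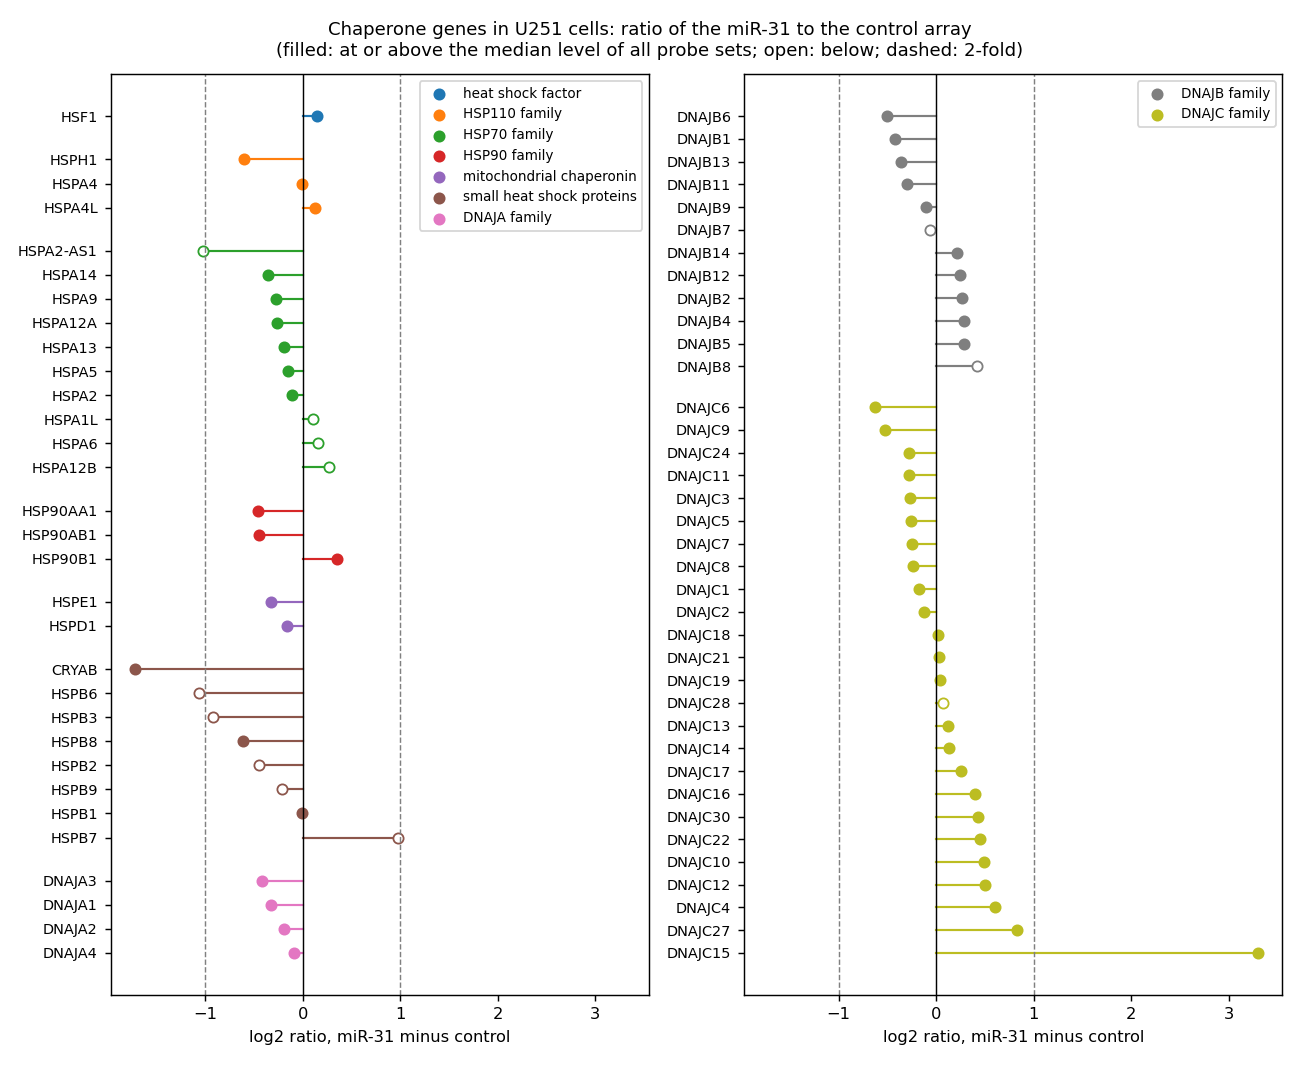
The horizontal axis gives the log2 ratio of the miR-31 to the control array for each of the 68 members, ordered within 9 families. Filled points reach the median level, open points are below it, and dashed lines mark 2-fold; CRYAB, HSPB6 and HSPA2-AS1 lie left of the lower line and DNAJC15 far to the right.

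HSF1, the inducer of the heat shock response, read 301 on the control array and 335 with miR-31, a log2 ratio of 0.15, with 0.16 on its other probe set. The values of HSF1 were close on both arrays, and the ratio fell under 0 once spike-in controls, RNAs of known amount added to each sample, were taken as the centre, whether the hybridisation or the poly-A class. The message says nothing of the activity of HSF1, which is set largely on the protein.

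HSP90 genes of the cytosol were lower and that of the endoplasmic reticulum was not. HSP90AA1, the inducible cytosolic HSP90, had 34373 on the control array and 25032 with miR-31 (-0.46, or 1.37-fold lower), with 4 probe sets between -0.55 and -0.21. HSP90AB1, its constitutive partner, had 20426 and 14999 (-0.45), with 3 probe sets between -0.45 and -0.25. All 7 probe sets of this pair were lower in the miR-31 array, each by less than 1.5-fold. HSP90B1, the HSP90 of the endoplasmic reticulum also called GRP94, had 7498 and 9580 (0.35), and 0.07 on its other probe set of a single symbol. Brighter sets that carry HSP90B1 beside another symbol, MIR3652, had 13375 and 14874 (0.15) and 16021 and 17502 (0.13). The ratio of 0.35 turned to -0.20 when centred on the poly-A controls.

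HSP70 genes with a probe set of a single symbol leave out the major inducible and constitutive cytosolic forms. HSPA1A, HSPA1B, HSPA8 and DNAJC25 were named only by probe sets that carry several symbols, and such sets were not taken to stand for a gene. There were 13 such probe sets with a chaperone symbol, 9 of them lower with miR-31, at a median ratio of -0.23 and a range from -1.11 to 0.15, and 11 were at or above the median level. The only one of them past 2-fold was below that level. Sets that name HSPA8, beside SNORD14C and SNORD14D, were bright and lower (-0.39, -0.38, -0.35 and -0.18). A set that names HSPA1A and HSPA1B had 2065 and 1214 (-0.76). A set that also names HSPA1L had -0.23, and a dim set of HSPA1A and HSPA1B 0.12. HSPA5, the HSP70 of the endoplasmic reticulum also called BiP, had 21279 on the control array and 19176 with miR-31 (-0.15, and -0.21 on its other probe set). HSPA9, the mitochondrial HSP70, had 11155 and 9245 (-0.27), with its 3 probe sets above the level between -0.66 and -0.20. HSPA14, a ribosome-linked HSP70, had 3100 and 2414 (-0.36), and HSPA13, a microsomal form, had 3408 and 2982 (-0.19, and -0.63 on its other probe set). HSPA12A had 88.5 and 70.9 (-0.27) and HSPA2, known from germ cells, 99.8 and 91.5 (-0.11). All 6 HSP70 members at or above the level were lower, each by less than the noise gauge on its brightest set except HSPA14. The others were dim: HSPA6, a strictly heat-induced form, had 41.3 and 47.8 (0.15, but 54.1 and 21.9, or -0.89, on its other set), HSPA1L a ratio of 0.11, and HSPA12B 45.6 and 58.1. HSPA2-AS1, whose RefSeq gene span overlaps that of HSPA2, had 24.8 and 4.13 (-1.02). No detection calls were used, so values this low cannot be separated from background.

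Of the HSP110 genes, whose products exchange nucleotide on HSP70, HSPH1 alone had a ratio beyond the noise gauge. It had 8107 on the control array and 5348 with miR-31 (-0.60, or 1.51-fold lower), and its 3 probe sets lay between -0.61 and -0.33. HSPA4 had 3999 and 3970 (-0.01), with 4 probe sets between -0.11 and 0.14, and HSPA4L 812 and 883 (0.12). The direction of HSPA4 depended on scaling, being above 0 after quantile normalization and after removal of a level trend, and that of HSPA4L was below 0 when centred on either class of spike-in controls.

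The mitochondrial chaperonin genes, which lie beside each other in the genome, were slightly lower. HSPD1, the ring subunit HSP60, had 33393 on the control array and 29829 with miR-31 (-0.16), and its 3 probe sets at or above the level lay between -0.70 and -0.16. HSPE1, the lid subunit HSP10, had 15368 and 12274 (-0.32). Both differences were below the noise gauge.

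Small heat shock proteins held the lowest ratio among the members. CRYAB, the small heat shock protein alpha-B crystallin, which is abundant in lens, muscle and reactive glia, had 5312 on the control array and 1601 with miR-31, a log2 ratio of -1.72 or 3.30-fold lower. It was read by 1 probe set, so no other set could be compared, and its ratio ran from -2.27 to -1.69 over the settings tried. In RNA from a whole culture, fewer cells with a message and less of it in each cell cannot be told apart. HSPB8, the partner of BAG3 in selective autophagy, had 2484 and 1618 (-0.61), but its other probe set had 181 and 234 (0.34). HSPB1, known as HSP27, had 11736 and 11687 (-0.01, and above 0 after quantile normalization and after removal of a level trend), so the bright members of the family ranged from -1.72 to -0.01. The other 5 members were dim on both arrays. HSPB6 had 31.7 and 6.80 (-1.06, and -0.97 on its other probe set), HSPB3 26.4 and 6.45 (-0.92), HSPB2 26.5 and 15.2 (-0.45), HSPB9 8.46 and 5.12 (-0.21) and HSPB7 4.75 and 24.9 (0.98). The calls on HSPB6 and HSPA2-AS1 were lost with a pseudocount of 64, at -0.43 and -0.38, and both genes fell out under a level filter. That on HSPA2-AS1 was also lost after removal of a level trend (-0.98), and that on HSPB6 without _s_at and _x_at sets (-0.97). HSPB2 lies within the RefSeq gene span of CRYAB.

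**Figure D2:**
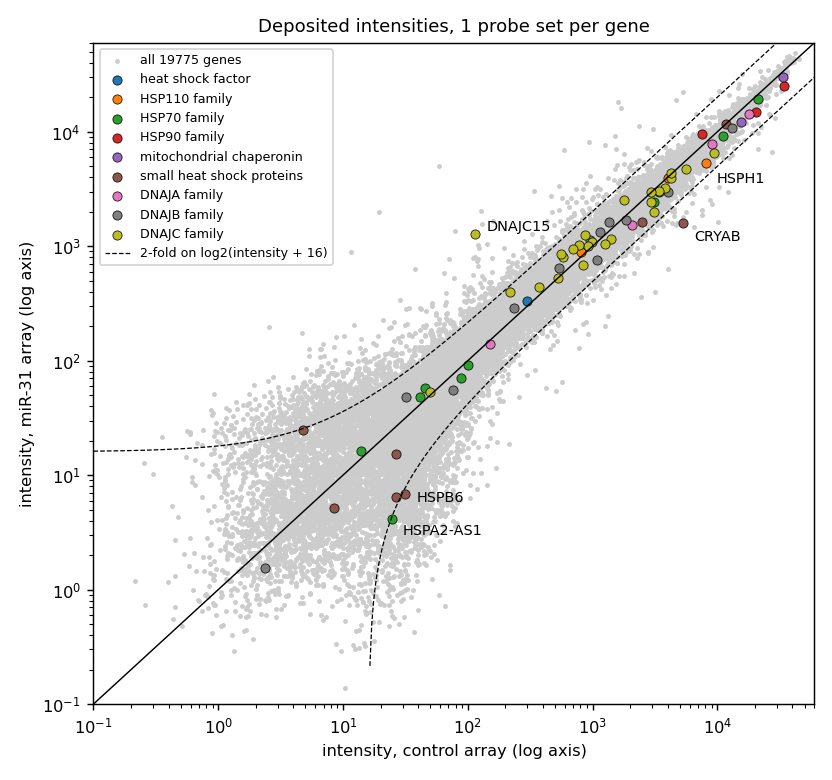
Deposited intensities of the control array (horizontal) and the miR-31 array (vertical) on log axes, with 1 point per gene: grey for all 19775 genes and coloured by family for the members. The solid line marks equal values and the dashed lines 2-fold after adding 16; CRYAB lies below the cloud at 5312 and 1601, DNAJC15 above it at 115 and 1275, and HSPB6 and HSPA2-AS1 lie where the cloud is wide.

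All 4 DNAJA genes, J-domain proteins closest to bacterial DnaJ, were lower by small amounts, with a median of -0.26. DNAJA1, a cytosolic partner of HSPA8, had 17963 on the control array and 14342 with miR-31 (-0.32), and -0.08 on its other probe set. DNAJA3, the mitochondrial partner of HSPA9, had 2069 and 1547 (-0.42), and -0.41 on its other probe set. DNAJA2 had 9029 and 7882 (-0.20, and 0.05 on its other set) and DNAJA4 149 and 139 (-0.09).

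The 12 DNAJB genes were divided, 6 lower and 6 higher, with a median of 0.07 that was below 0 with median centring, with the mean of probe sets and when centred on either class of spike-in controls. DNAJB6, a suppressor of polyglutamine aggregation, had 1089 on the control array and 761 with miR-31 (-0.51). Brighter sets that carry DNAJB6 beside another symbol, TMEM135, had 4069 and 3637 (-0.16) and 4016 and 3260 (-0.30). DNAJB1, known as HSP40 and itself heat-inducible, had 3991 and 2977 (-0.42), and -0.56 on its other probe set. DNAJB11, a BiP cofactor of the endoplasmic reticulum, had 13140 and 10709 (-0.29), and DNAJB9, another such cofactor that is induced by unfolded protein, had 1841 and 1712 (-0.10). On the higher side the ratios ran from 0.21 (DNAJB14) to 0.42 (DNAJB8), the latter with intensities of 31.8 and 47.9. DNAJB5 had 234 and 289 (0.29) and DNAJB4 1344 and 1640 (0.28, and 0.18 on its other probe set). The probe sets of DNAJB12, a membrane protein of the endoplasmic reticulum, disagreed: the brightest had 951 and 1130 (0.25), and the others -0.28, -1.07 and -0.59. DNAJB13, with 75.4 and 55.1 (-0.36), had 0.32 on a second set whose mean was nearly as high. DNAJB2 had 535 and 644 (0.26) and DNAJB7 2.35 and 1.55.

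DNAJC15 was the highest member. It codes for a J-domain protein of the mitochondrial inner membrane, also called MCJ, that takes part in protein import and restrains the respiratory chain. Its brightest probe set had 115 on the control array and 1275 with miR-31, a log2 ratio of 3.30 or 9.86-fold higher. The other 2 probe sets did not show this: one had 60.9 and 64.3 (0.06) and the other 29.7 and 48.9 (0.51), both with a mean below the median level. The mean over the 3 sets was 1.29, which passed 2-fold through the brightest set and adds no separate support. What the 3 sets read was not tested. For comparison within the family, DNAJC19, the related import subunit, had 4264 and 4387 (0.04).

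Of the 25 DNAJC genes 15 were higher and 10 lower, with a median of 0.04 that was below 0 with median centring and when centred on either class of spike-in controls. DNAJC27, a Rab-like GTPase with a J domain, had 218 on the control array and 401 with miR-31 (0.83), with further probe sets at 0.74, 0.15 and -0.34. DNAJC4 had 563 and 862 (0.60), with 5 probe sets between -0.39 and 0.60. DNAJC12, a cochaperone of aromatic amino acid hydroxylases, had 875 and 1242 (0.50), with 0.66 and 0.10 on its others. DNAJC10, a disulphide reductase of the endoplasmic reticulum, had 1793 and 2519 (0.49), and its 4 sets above the level were all higher, from 0.04 upwards. The 3 sets of DNAJC22 lay between 0.35 and 0.51, and DNAJC30, a mitochondrial member, had 695 and 939 (0.43) and 0.29 on another set. DNAJC16 had 776 and 1031 (0.40) and DNAJC17 369 and 444 (0.26).

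On the lower side DNAJC6, the neural auxilin that uncoats clathrin vesicles, had 3101 on the control array and 1998 with miR-31 (-0.63). DNAJC9, a histone chaperone and the brightest of the family, had 9443 and 6541 (-0.53), and -0.45 on its next set. DNAJC24, needed to make diphthamide, had -0.28, and DNAJC11, a protein of the mitochondrial cristae junction, -0.28 with 0.15 on its other set. DNAJC3, known as P58IPK, an inhibitor of eIF2-alpha kinases in the endoplasmic reticulum, had 2947 and 2447 (-0.27), and its 4 sets lay between -0.28 and 0.02. DNAJC5, the cysteine string protein of secretory vesicles, had -0.26, DNAJC7, a tetratricopeptide cochaperone of HSP70 and HSP90, -0.25, DNAJC8, a splicing factor, -0.24 (0.03 on both other sets), DNAJC1 -0.18 and the ribosome-bound DNAJC2 -0.13. The ratios of DNAJC13, DNAJC14, DNAJC18, DNAJC21 and DNAJC28 lay between 0.01 and 0.13, each well inside the noise gauge, but dimmer sets differed. One of DNAJC18 had 0.93, and the 4 other sets of DNAJC21 at or above the level were all lower, from -0.58 to -0.12.

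**Figure D3:**
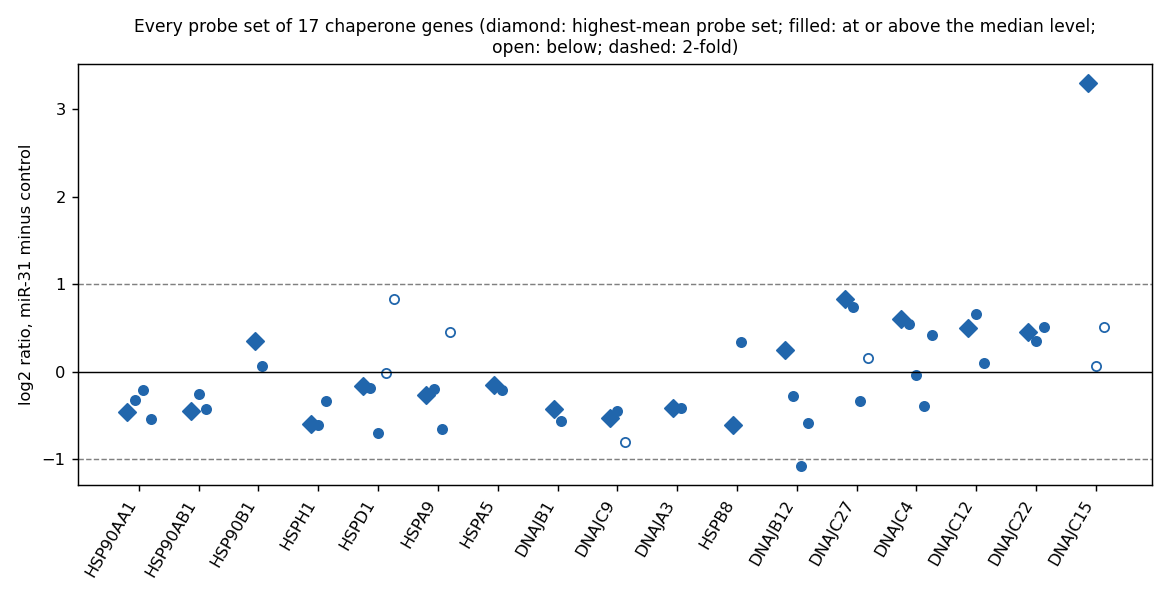
The vertical axis gives the log2 ratio of every probe set of 17 chaperone genes, with a diamond for the set of highest mean, filled points at or above the median level and open points below it. The sets of HSP90AA1, HSP90AB1 and HSPH1 all lie below 0, whereas those of DNAJC15 spread from 0.06 to 3.30 and those of DNAJB12 from -1.07 to 0.25.

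Agreement between probe sets was examined for the 40 members with at least 2 sets at or above the median level. In 27 of these all sets had the same sign, 15 lower and 12 higher, and in 13 the signs were mixed. The sets differed by more than 1 on the log2 scale in 2 members, DNAJB12 and DNAJC27.

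The direction of a member went with its brightness. Among the 26 members in the brightest 25 percent of genes at or above the level (intensities from 2191 upwards), 23 were lower with miR-31, and they had a median of -0.26. Over all 2947 genes of that brightness 56.9% were lower, with a median of -0.05. The exceptions, by their brightest sets, were HSP90B1, DNAJC19 and DNAJC21. Among the 30 members at or above the level but outside that class 11 were lower and 19 higher, with a median of 0.14, beside 43.4% lower and a median of 0.07 over all 8839 such genes. Over all members the median was -0.10 after removal of a level trend, beside -0.01 over all genes.

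**Figure D4:**
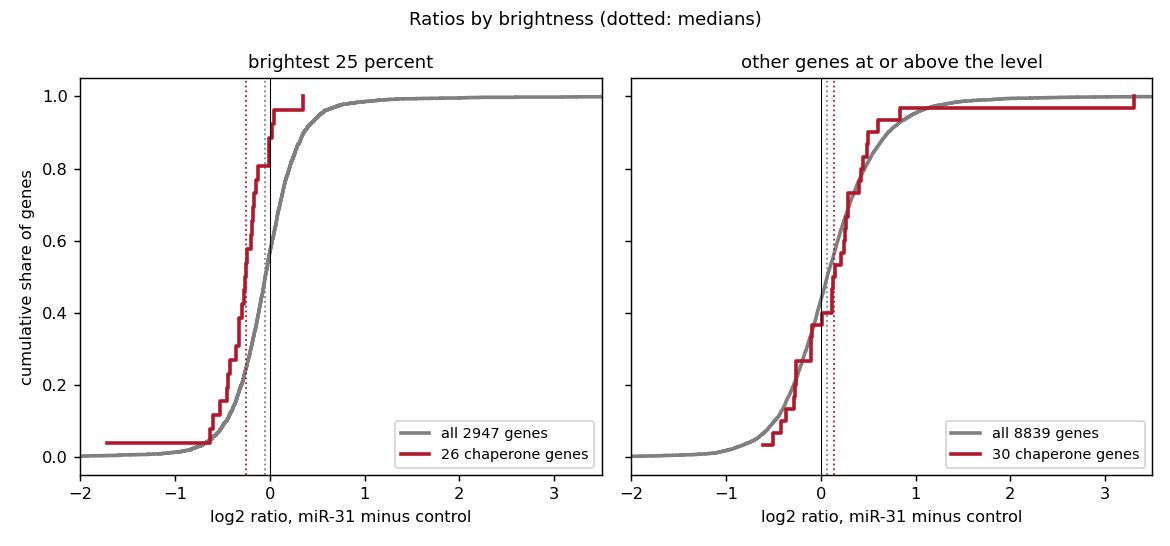
Cumulative share of genes (vertical) against the log2 ratio (horizontal) for all genes in grey and for members in red, in the brightest 25 percent on the left and among other genes at or above the level on the right. Dotted lines mark medians: -0.26 for 26 members against -0.05 for 2947 genes on the left, and 0.14 for 30 members against 0.07 for 8839 genes on the right; the axis stops at -2 and 3.5, beyond which some genes lie.

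Members were also arranged by compartment, a grouping made after the values were seen. Of 16 listed chaperones of cytosol and nucleus 14 were lower, with a median of -0.39 that ran from -0.94 to -0.25 over the settings tried. This list is a selection that does not cover the whole compartment, so its count and median describe the listed genes only. Several members were left out, for example DNAJB5 (0.29) and DNAJC12 (0.50), both higher, and DNAJC6 (-0.63), lower. HSPB1 at -0.01 and HSPA4 at -0.01 were the closest to 0 of the lower ones in the list. Both turned above 0 after quantile normalization and after removal of a level trend. The higher ones in the list were DNAJB4 (0.28) and HSPA4L (0.12). Of 10 listed chaperones of the endoplasmic reticulum 6 were lower, with a median of -0.13 and a range from -0.29 to 0.49. Of 9 listed mitochondrial chaperones 5 were lower, with a median of -0.16, which was 0.07 without probe sets named _s_at or _x_at. These lists too are selections, and their counts describe the listed genes only. The difference between compartments was not tested.

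Partner genes of these chaperones were mostly lower as well, and none passed 2-fold. Of 82 partner genes listed 75 were measured, 55 of them lower, with a median of -0.22; 9 were lower and 2 higher by 1.5-fold or more. By sign 73.3% were lower, beside 49.2% of all genes and 56.9% of the brightest 25 percent. The share 1.5-fold lower was 12%, beside 12.7% of all genes, and the share higher 2.67%, beside 15.1%. All genes include many dim ones, whereas most partner genes were at or above the level. Of the 11786 genes at or above the level 794 were lower and 1386 higher by 1.5-fold or more. Of the 2947 in the brightest 25 percent it was 172 and 114. Against both of these sets the partner genes had the larger share lower and the smaller share higher. Of 15 HSP90 cochaperones 11 were lower, with a median of -0.36 that ran from -0.91, centred on poly-A controls, to -0.18 without _s_at and _x_at sets. STIP1, the adaptor HOP that joins HSP70 to HSP90, had 3617 on the control array and 1824 with miR-31 (-0.98), and -0.66 on its other probe set. CHORDC1, a heat-inducible HSP90 cochaperone, had 3027 and 1620 (-0.89), with a second set that was dim. ITGB1BP2, the muscle cochaperone melusin, had 92.5 and 42.3 (-0.90), and PPID, a cyclophilin, had -0.62, with -0.18 on its other bright set. FKBP5 lay on the other side, with 1221 and 1852 (0.59).

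Of 13 nucleotide exchange factors and adaptors of HSP70 11 were lower, with a median of -0.21. GRPEL1, the exchange factor of HSPA9, had 2617 on the control array and 1757 with miR-31 (-0.57), BAG3 6509 and 4603 (-0.50), and BAG1 2437 and 1810 (-0.43). SIL1, the exchange factor of BiP, had 567 and 874 (0.61). The J-domain proteins with other names were near 0, with SEC63 at -0.14, GAK at -0.22 and HSCB at -0.01.

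The cytosolic chaperonin CCT, which folds actin and tubulin, had all 7 of its measured subunits lower on their highest-mean sets. They ran from -0.61 (CCT5, and -0.07 on a dimmer set) to -0.20 (CCT4, and 0.02 on a dimmer set). CCT2 had -0.32, but 0.02 on its other set, with 4611 and 4680. CCT3 had -0.39 and CCT6A -0.33, and -0.30 on its other set. With prefoldin, 10 of 12 were lower, with a median of -0.28; PFDN2 had -0.65 and PFDN5 0.31. The list of other heat shock factors and heat-inducible genes had 11 of 14 lower, with the lowest median of these lists, -0.51. It shares STIP1, CHORDC1, FKBP4 (-0.61) and BAG3 with the lists above, and IER5, which feeds back on HSF1, had 3959 and 2599 (-0.60). Its median ran from -1.06 to -0.06 over the settings tried. ZFAND2A, a proteasome-linked heat-inducible gene, had -0.53 and CACYBP -0.58, whereas UBB had 0.10. HSBP1, a negative regulator of HSF1, had 0.28, but -0.03 on its other set, with 2702 and 2647.

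Folding genes of the endoplasmic reticulum and mitochondria were closer to 0. Of 16 genes of the former 9 were lower and 7 higher, with a median of -0.16. On the lower side SDF2L1, a BiP cofactor, had -0.68 and DDIT3, the stress factor CHOP, -0.48. PDIA3, a disulphide isomerase, had -0.47, with 0.17 on one of its dimmer sets. The highest was SIL1, named above, with 0.61. Of 11 mitochondrial genes 7 were lower, with a median of -0.17, which was 0.05 with the mean of probe sets; TRAP1, the mitochondrial HSP90, had 294 and 397 (0.42), TIMM44, which anchors HSPA9 at the import channel, had -0.39 (0.11 on its other set) and CLPP, a matrix protease, -0.33. These lists share members with each other, and no difference between them was tested.

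**Figure D5:**
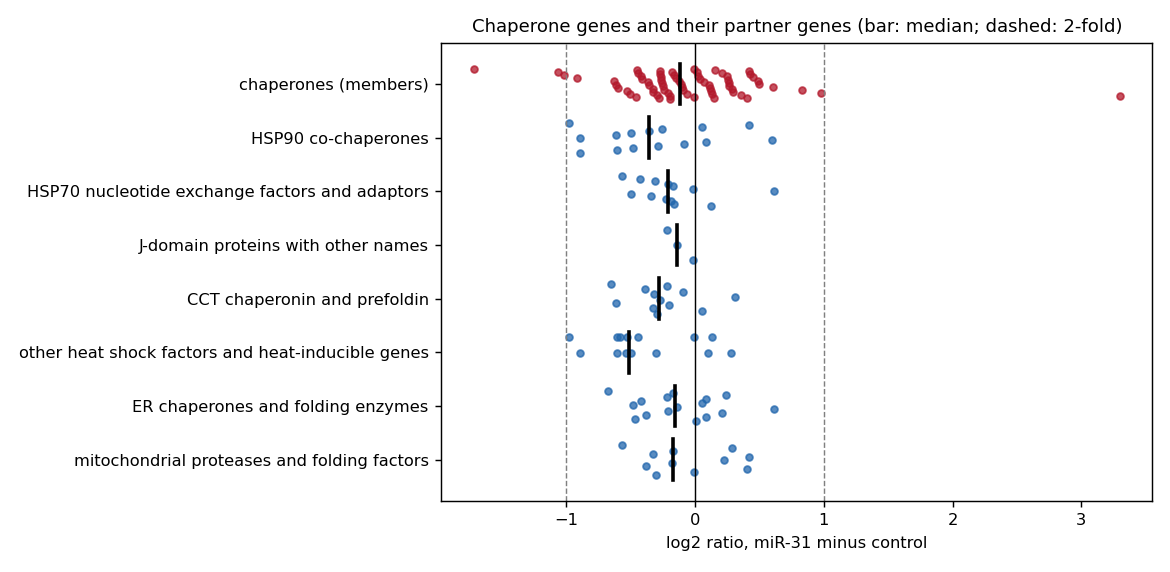
Log2 ratio of each gene (horizontal) in the chaperone members, in red, and in 7 lists of partner genes, in blue, with a black bar at each median and dashed lines at 2-fold. The medians run from -0.51 in the heat-inducible list to -0.12 in the members, and no partner gene lies beyond 2-fold.

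Promoters were searched for the heat shock element, the DNA site of HSF1, made of inverted GAA units. RefSeq promoter windows of 300 bases (250 before and 50 after the start site, GRCh38.p14) were at hand for 60 of the 68 members. The members CRYAB, DNAJC1, DNAJC22, DNAJC24, HSF1, HSPA12B, HSPA14 and HSPB2 had none. A match to 3 units, GAANNTTCNNGAA or its reverse complement TTCNNGAANNTTC, stood in 3 of these (5%) and in 0.487% of all 27305 windows. These were DNAJA1 (chr9:33025262-33025288, plus strand, log2 ratio -0.32), DNAJB6 (chr7:157336859-157336899, plus strand, -0.51) and HSPA6 (chr1:161524452-161524492, plus strand, 0.15). They are shown because they carry the full element, in capitals, with flanking bases, for DNAJA1 on the upstream side only:
DNAJA1: cggcgcgccgggcgGAACTTTCCAGAA
DNAJB6: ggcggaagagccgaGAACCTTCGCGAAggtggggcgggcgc
HSPA6: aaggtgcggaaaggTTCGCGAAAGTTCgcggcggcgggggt

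The first lies just past the start site of DNAJA1, and the others 131 bases before that of DNAJB6 and 74 before that of HSPA6. A shorter match of 2 units, GAANNTTC or TTCNNGAA, which also counts every full element, stood in 11 of the 60 windows (18.3%) and in 13.7% of all windows. Of these 11 members 8 were lower, with a median of -0.27, beside 27 of 49 lower and a median of -0.10 for the members without such a match. The difference was not tested. Of the matched members DNAJB7, HSPB3 and HSPB6, counted as lower, and HSPA1L and HSPA6, counted as higher, were below the median level. Values that low cannot be separated from background. Of the 4 small heat shock genes with a match HSPB1 (-0.01) and HSPB3 (-0.92) held 1 each. HSPB8 (chr12:119178829-119178864, plus strand) and HSPB6 (chr19:35757204-35757253, minus strand), which had ratios of -0.61 and -1.06, held 2 matches each, of which the first is shown for HSPB8 and both for HSPB6, in capitals, and 1 stood in the window of DNAJC15 (chr13:43023383-43023418, plus strand), the highest member:
HSPB8: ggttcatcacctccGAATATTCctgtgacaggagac
HSPB6: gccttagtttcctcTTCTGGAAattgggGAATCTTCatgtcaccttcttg
DNAJC15: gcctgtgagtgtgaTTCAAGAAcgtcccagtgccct

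A match is a description of the letters and not evidence of binding, and the windows of HSP90AA1, HSP90AB1, HSPH1 and DNAJB1 held neither form. Members with a match had ratios on both sides of 0, and the direction of HSPA6 differed between its probe sets.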

How the data were processed

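The authors deposited a table of linear intensity for 54675 probe sets of the HG-U133_Plus_2 array, and how it was computed is not given in the sources used. The supplied platform annotation gave 41097 of them 1 gene symbol and 1801 several. Only the former stood for a gene, and all 68 members matched RefSeq by Entrez identifier. For each gene the probe set with the highest mean intensity was taken, with no filter on low values, and log2(intensity + 16) of the arrays was subtracted. A gene was at or above the level if the mean of its log2 values reached the median over probe sets. Called means at least 2-fold on that scale. The members and lists were chosen with earlier results of these data known. Named genes were the members past 2-fold, in each family the 3 largest ratios and 2 brightest members at or above the level, 15 members set by name, of which HSPA8 had no usable probe set, and up to 4 genes of each partner list; others were named after their values were seen, to account for every member. The calculation was tested on simulated data. Centring on spike-in controls used 18 hybridisation and 24 poly-A probe sets, with medians of 0.19 and 0.55. Further settings were quantile normalization, median centring, loess (span 0.3), pseudocounts of 1 and 64, a level filter, the mean of probe sets, leaving out _s_at and _x_at sets, and 1.5-fold. Python 3.11.15, numpy 2.4.6, pandas 2.3.3, statsmodels 0.14.6 and matplotlib 3.10.9 were used.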

Additional observations from a re-analysis of the deposited data

How the results depend on the processing

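No paired analysis was possible because there was 1 array a group. Leaving an array out would end the comparison. The median over members, -0.12, was below 0 in all 10 alternatives tried: it moved to -0.19 with median centring, -0.31 centred on hybridisation controls, -0.67 centred on poly-A controls and -0.053 when _s_at and _x_at probe sets were dropped, with the gap between members and all genes, -0.13 as reported, between -0.17 (level filter) and -0.06 (_s_at and _x_at sets dropped, where the median over all genes stayed at 0.01). The count of members at least 2-fold lower, 3, became 10 centred on poly-A controls, 1 with a level filter, 1 with a pseudocount of 64 and 7 at 1.5-fold. It was 2 after loess and without _s_at and _x_at sets, and 4 centred on hybridisation controls and with a pseudocount of 1. The count at least 2-fold higher, 1, became 2 after loess, 2 with a pseudocount of 1 and 4 at 1.5-fold. Threshold and filter change by construction how many members can pass, and the spike-in shift applies to every gene alike. Of 31 members followed through the settings 7 changed sign under at least 1, and of 18 list medians 5 did. CRYAB and DNAJC15 kept their side of 2-fold in every alternative. For CRYAB all of these used its only probe set, and for DNAJC15 all rested on its brightest set.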
